A study of Mus musculus with 6 samples.

Results

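The genes described here are those of cholesterol synthesis and of its transcriptional control by SREBP2, in the prefrontal cortex of mice with a 16p11.2 duplication. The 8 named members are Hmgcs1, Idi1, Fdft1, Sqle, Cyp51 and Dhcr7, which encode enzymes of the pathway, Srebf2, which encodes SREBP2, and Insig1, which encodes a sterol sensor that holds SREBP2 back. They were taken by symbol from a table of 45471 named genes, and all 8 had enough counts to be tested, among 15399 tested genes. They are set among 22 enzymes that lead from acetyl-CoA to cholesterol, and among 83 genes of sterol synthesis, its regulators, sterol uptake and efflux, fatty acid synthesis and isoprenoid branches, of which 81 were tested. In the deposited table most gene names stand some lines away from their own counts, and all values are given with names put back in line.

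RNA was sequenced from homogenate of the prefrontal cortex at postnatal week 8, in 3 libraries from mice heterozygous for the 16p11.2 duplication and 3 from wild type mice. The duplication is a copy number variant that raises the risk of autism and of schizophrenia in its human carriers, and these mice have an added copy of the matching stretch of chromosome 7. Both genotypes come from a line founded on hybrid C57BL/6N:129Sv mice and bred back to C57BL/6 over 10 generations. The labels do not say that each library is a separate animal or give litters, so the tests speak to the spread among these 6 samples, and that spread may be technical. Homogenate holds all cell types of the cortex, and in such bulk tissue fewer cells of a type and less RNA per cell cannot be told apart.

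Cells make cholesterol from acetyl-CoA by way of mevalonate, squalene and lanosterol, and the brain makes nearly all of its own, since lipoproteins of the blood do not cross into it. Oligodendrocytes use it for myelin, and astrocytes pass it to neurons on particles that carry apolipoprotein E. When sterol in the endoplasmic reticulum is low, SCAP escorts SREBP2 to the Golgi, where it is cut and freed to switch on nearly every enzyme of the pathway and genes of sterol uptake, and when sterol is high, INSIG proteins hold SCAP back.

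The control regions of 3 members are shown, since the enzymes are known for a shared SREBP2 response. Srebf2 is the member with the largest log2 fold change in either direction, though its groups overlap. The sequences are RefSeq promoters of GRCm38.p6 from 250 bases before to 50 bases after the gene start, 5′ to 3′ on the strand of the gene. Capitals mark TCACNCCAC, a sterol regulatory element core, and CCAAT, the box bound by NF-Y, which works beside SREBP2. On the strand shown CCAAT reads ATTGG where it lies on the other strand. The intervals are chr13:119690101-119690400 on the plus strand for Hmgcs1, chr13:8885356-8885655 on the plus strand for Idi1 and chr15:82147019-82147318 on the plus strand for Srebf2.
Hmgcs1: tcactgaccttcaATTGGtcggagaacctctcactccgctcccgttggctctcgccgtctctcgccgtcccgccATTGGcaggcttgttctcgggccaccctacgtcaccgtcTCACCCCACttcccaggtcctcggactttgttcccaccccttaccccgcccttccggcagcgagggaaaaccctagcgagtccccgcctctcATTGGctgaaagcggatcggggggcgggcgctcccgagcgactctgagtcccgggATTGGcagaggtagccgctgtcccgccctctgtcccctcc
Idi1: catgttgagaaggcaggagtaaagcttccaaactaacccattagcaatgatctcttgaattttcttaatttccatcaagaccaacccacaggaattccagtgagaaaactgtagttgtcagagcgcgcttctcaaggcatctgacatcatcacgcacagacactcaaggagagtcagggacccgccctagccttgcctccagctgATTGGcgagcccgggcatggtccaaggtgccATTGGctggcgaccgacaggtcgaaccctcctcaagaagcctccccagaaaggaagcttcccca
Srebf2: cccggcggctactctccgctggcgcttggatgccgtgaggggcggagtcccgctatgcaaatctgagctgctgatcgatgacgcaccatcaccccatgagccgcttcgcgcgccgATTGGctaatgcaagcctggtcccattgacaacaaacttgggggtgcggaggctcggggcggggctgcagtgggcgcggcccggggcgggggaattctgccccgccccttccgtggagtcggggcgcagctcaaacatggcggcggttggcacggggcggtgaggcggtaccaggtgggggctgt
The core TCACNCCAC, searched on both strands, occurred in 1.24% of 32851 promoters of this length and in 1 of the 17 enzymes with a promoter in the table, Hmgcs1, where it starts 137 bases before the gene start. CCAAT occurred in 37.4% of all promoters and in 15 of those 17, and GGGCGG, the GC box bound by SP1, in 35.7% of all promoters and in 16 of those 17. Hmgcs1 holds 4 CCAAT boxes in its window, Idi1 holds 2 and Srebf2 holds 1. None of the capitals overlap another motif match. A match describes letters only, and other forms of the element were not searched.

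Total gene counts were 21872271, 14891890 and 16038828 in the duplication libraries 1 to 3, and 12988457, 14369271 and 13889329 in the wild type libraries 1 to 3. Of 22 tested protein-coding genes from Coro1a to Spn, inside the segment that matches 16p11.2, 21 had a positive log2 fold change of duplication over wild type, with a median of 0.757, and 18 were higher in every duplication library than in any wild type library. None of the sterol enzymes or members lies in that segment, and Dhcr7, on the same chromosome, is 16.7 Mb away. Over all 15399 genes, edgeR's quasi-likelihood test called 0.0% at a Benjamini-Hochberg adjusted p under 0.05. Unadjusted p-values were under 0.05 with higher values in duplication for 7.05% of genes and with lower values for 12.2%. DESeq2 called 1.85% (46 genes higher and 239 lower) and limma-voom called 0. All 3 duplication libraries were above all 3 wild type libraries at 11.7% of genes, and below them at 10.5%. Replicate 1 of each group had no Xist counts, and the other 4 libraries held Xist, so sex does not divide the groups. Both libraries numbered 2 also held some counts of Y-linked genes, such as Ddx3y at 5.20 CPM in duplication and 4.93 CPM in wild type, against 97.9 and 77.9 CPM in the libraries numbered 1 of duplication and wild type and at most 0.315 CPM in those numbered 3.

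Each enzyme of cholesterol synthesis differed by less than 1.5-fold between duplication and wild type cortex. None of the 22 was called. None had an unadjusted p under 0.05 in either direction, beside 7.05% of all genes higher and 12.2% lower. At none did the groups stand apart in CPM (counts scaled to the library total, with TMM factors), beside 11.7% higher and 10.5% lower. Their log2 fold changes of duplication over wild type ran from -0.22 for Dhcr7 to 0.18 for Ebp, 14 positive and 8 negative. Their median was 0.031, beside 0.005 over all tested genes. Summed over the 22 enzymes, the level was 1451, 1467 and 1486 CPM in the duplication libraries and 1389, 1432 and 1508 CPM in the wild type libraries, with means of 1468 ± 17.6 CPM in duplication and 1443 ± 60.1 CPM in wild type (SD, n = 3 each). In this sum the duplication libraries lie between wild type replicate 2 and wild type replicate 3. A p over the threshold does not show that levels are equal, but the intervals bound the difference. The 95% intervals of all 22 lay between -0.49 and 0.43, inside a 1.5-fold change in either direction (0.585 on the log2 scale), which held for 69.5% of all tested genes. The median coefficient of variation over the 6 libraries was 6.15% for the enzymes and 10.5% for all tested genes. It was 6.45% for genes of fatty acid synthesis, 6.58% for the regulators and 7.15% for microglial markers. Oligodendrocyte and meningeal fibroblast markers were at 24.8% and 46.5%. All intervals of the astrocyte, neuronal, microglial and endothelial markers also lay inside a 1.5-fold change, so this was not particular to the enzymes.

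**Figure D1:**
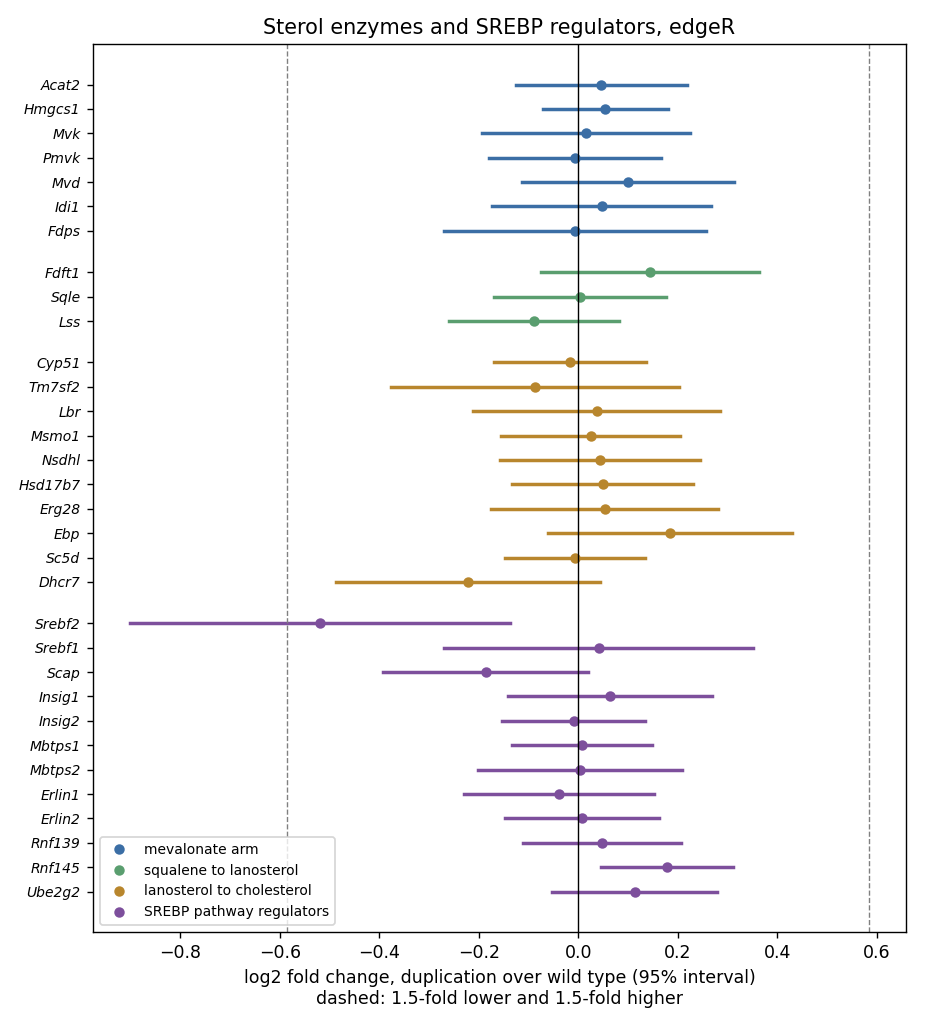
Log2 fold change of duplication over wild type with its 95% interval (edgeR, 3 libraries per group) for enzymes in the order of the reactions and for regulators, coloured by step, with dashed lines at a 1.5-fold change either way. The interval of each enzyme drawn lies within the dashed lines, and Srebf2, at -0.52, is the one gene whose interval passes them.

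The mevalonate arm, from acetyl-CoA to the isoprenoid units, was measured at 8 genes, and its largest difference was 0.10 ± 0.09 for Mvd, mevalonate decarboxylase. Hmgcs1, the cytosolic HMG-CoA synthase of the early arm, lies at chr13:119690379-119708260 on the plus strand. It stood at 438, 443 and 454 CPM in duplication and at 411, 429 and 445 CPM in wild type. The duplication libraries cluster at the upper end of the wild type range, with wild type replicate 3 above duplication replicates 1 and 2. Its log2 fold change was 0.05 ± 0.06 (SE, edgeR adjusted p = 0.606). On the other strand, Hmgcs1 shares 6190 bases with Gm48342, which has no named line among the counts used. Mvd likewise shares 9822 bases with Gm20388, a gene with 0 counts. Idi1, the isomerase that sets the balance of the isoprenoid units, lies at chr13:8885501-8892451 on the plus strand. It stood at 15.0, 14.5 and 15.9 CPM in duplication and at 13.9, 16.1 and 13.9 CPM in wild type. The highest and the lowest of the 6 values are both from wild type, and the log2 fold change was 0.05 ± 0.10 (edgeR adjusted p = 0.814). A further 5 genes of the arm, Acat2 (acetoacetyl-CoA thiolase), Mvk and Pmvk (the mevalonate kinases), Mvd and Fdps (farnesyl diphosphate synthase), had log2 fold changes between -0.01 and 0.10.

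The step that commits the pathway to sterols runs from farnesyl diphosphate to lanosterol. Fdft1, squalene synthase, at chr14:63145150-63179578 on the minus strand, stood at 97.8, 90.0 and 94.1 CPM in duplication and at 72.0, 88.4 and 94.6 CPM in wild type. Wild type replicate 1 is the low value and the other 5 lie close together. Its log2 fold change of 0.14 ± 0.10 was the largest positive one among the members (edgeR adjusted p = 0.433), and it ran from 0.04 without wild type replicate 1 to 0.23 without wild type replicate 3. Fdft1 shares 774 bases with Ctsb on the other strand, a gene with 43962 counts, and no source used here says whether reads were counted by strand. Sqle, the squalene epoxidase and another control point of the pathway, lies at chr15:59315077-59331192 on the plus strand. It stood at 73.6, 72.6 and 74.5 CPM in duplication and at 66.4, 73.3 and 80.5 CPM in wild type. The duplication libraries lie within the wild type range, with a log2 fold change of 0.00 ± 0.08 and a 95% interval from -0.17 to 0.18. Lss, which closes squalene oxide into lanosterol, had a log2 fold change of -0.09 ± 0.08. It shares 11268 bases with 4930483K19Rik on the other strand, a gene with 0 counts.

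The last arm turns lanosterol into cholesterol. Cyp51, the demethylase that opens it, at chr5:4081145-4104746 on the minus strand, stood at 81.7, 73.2 and 83.0 CPM in duplication and at 79.8, 78.8 and 82.1 CPM in wild type. The wild type values fall inside the duplication range, with a log2 fold change of -0.02 ± 0.07 (edgeR adjusted p = 0.914). Cyp51 shares 166 bases with Akap9 on the other strand. Dhcr7, which makes cholesterol in the final reduction and whose loss in people causes Smith-Lemli-Opitz syndrome, lies at chr7:143823145-143848410 on the plus strand. It stood at 12.3, 13.8 and 12.9 CPM in duplication and at 15.2, 13.0 and 17.2 CPM in wild type. All duplication libraries lie below wild type replicates 1 and 3, and wild type replicate 2 is among them. The log2 fold change of -0.22 ± 0.12 did not pass (edgeR adjusted p = 0.332), and it ran from -0.32 without wild type replicate 2 to -0.12 without wild type replicate 3. A further 8 genes of the arm, Tm7sf2 and Lbr (sterol reductases), Msmo1, Nsdhl and Hsd17b7 (removal of the methyl groups at carbon 4), Erg28 (their scaffold), Ebp (an isomerase) and Sc5d (a desaturase), had log2 fold changes between -0.09 and 0.18. Tm7sf2 shares 532 bases with Vps51 on the same strand, which makes its count uncertain. Msmo1 lies 11 lines from a step in the offset of the names. Its 8276 counts stand between the 167548 of Cpe and the 21668 of Klhl2 under the offset used, and the median of the enzymes without it was 0.037.

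**Figure D2:**
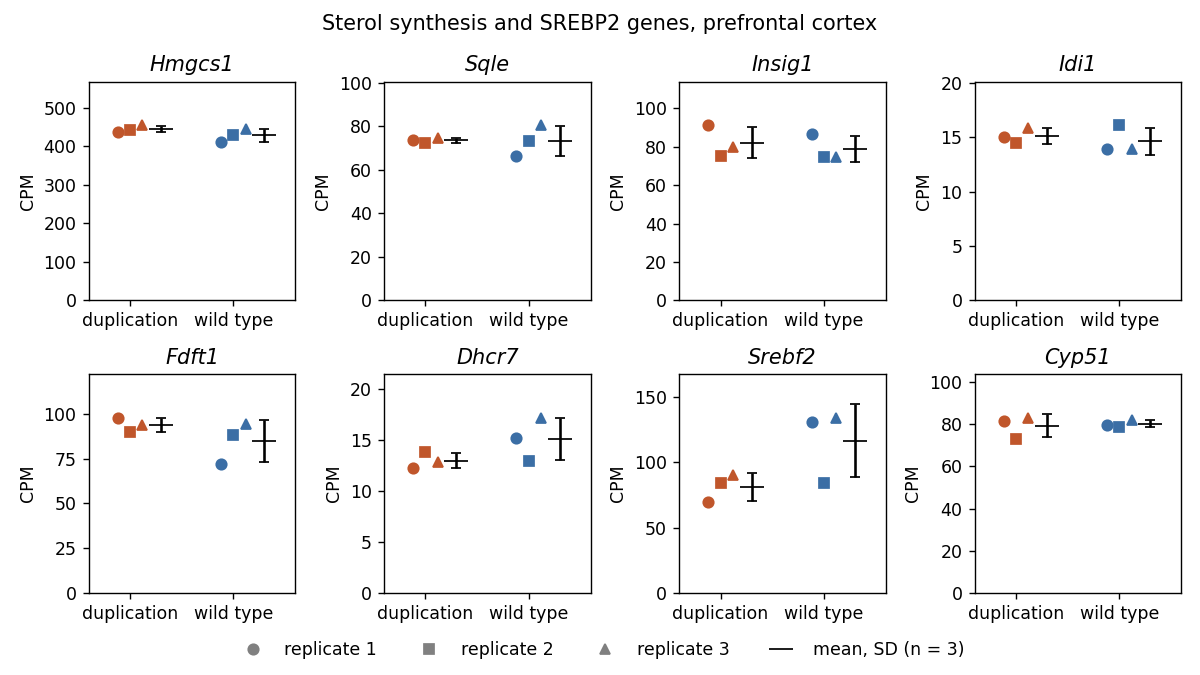
CPM of the 8 members in each library, with duplication left of wild type, 1 marker shape per replicate number, and the mean ± SD of 3 libraries beside the points. At Srebf2 wild type replicate 2, at 84.3 CPM, lies with the duplication libraries, at 69.4 to 90.1 CPM, and apart from the other wild type libraries, at 131 and 134 CPM.

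Levels per kilobase of exon allow a rough comparison between genes. The length used is that of all annotated exons of a gene merged, which can exceed the length of its main transcript. Hmgcs1 was at 96.9 CPM per kb in duplication and at 93.3 CPM per kb in wild type, the highest of the 22 enzymes. Fdft1 was at 22.2 CPM per kb in duplication and 20.1 CPM per kb in wild type. Cyp51 was at 18.0 CPM per kb in duplication and 18.2 CPM per kb in wild type, and Sqle at 13.3 CPM per kb in duplication and 13.2 CPM per kb in wild type. Idi1 was at 4.32 CPM per kb in duplication and 4.17 CPM per kb in wild type. The lowest were Dhcr7, at 2.23 CPM per kb in duplication and 2.60 CPM per kb in wild type, and Fdps, at 2.30 CPM per kb in both. Most of Fdps lies within the span of the annotated gene Gm43738 on the same strand. Gm43738 has no named line among the counts used, so whether it took reads from Fdps is not known.

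**Figure D3:**
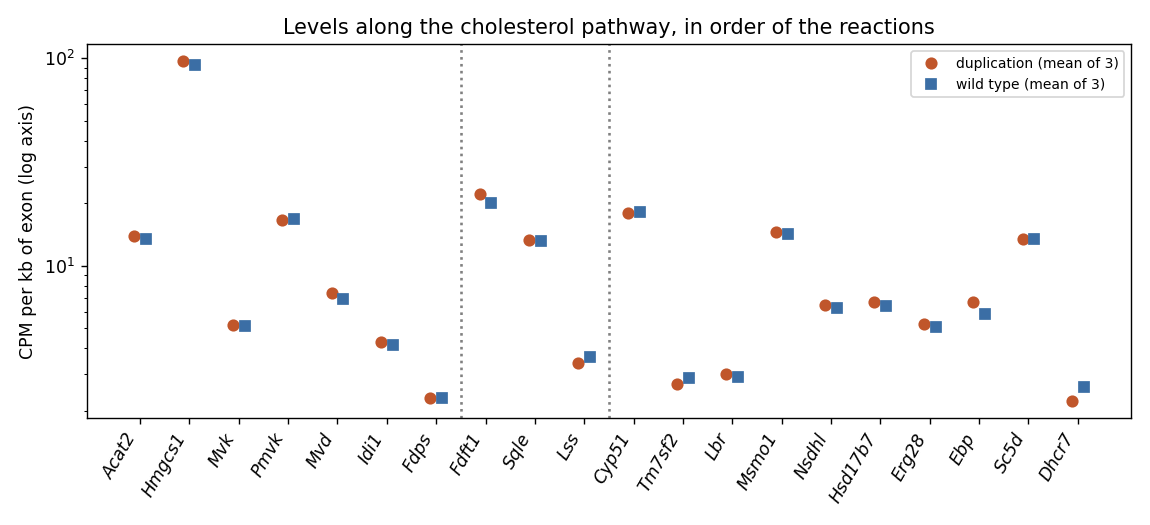
Mean CPM per kb of exon, on a log axis, of the enzymes in the order of the reactions, duplication left of wild type, with dotted lines between the mevalonate arm, the squalene to lanosterol step and the lanosterol to cholesterol arm. The group means lie close together at the enzymes drawn, with Hmgcs1 at 96.9 CPM per kb in duplication and 93.3 CPM per kb in wild type, and Fdps at 2.30 CPM per kb in both.

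Srebf2 was the member with the largest difference. The gene lies at chr15:82147181-82205379 on the plus strand and stood at 69.4, 84.5 and 90.1 CPM in duplication and at 131, 84.3 and 134 CPM in wild type. Wild type replicates 1 and 3 are well above the other 4 libraries, and wild type replicate 2 lies between duplication replicates 1 and 2, so the groups overlap. The means were 81.3 ± 10.7 CPM in duplication and 117 ± 28.0 CPM in wild type (SD, n = 3 each). The log2 fold change was -0.52 ± 0.17 with a 95% interval from -0.90 to -0.14, and it did not pass (edgeR unadjusted p = 0.0132, adjusted p = 0.179). Srebf2 was the 1 member of 8 with an unadjusted p under 0.05, beside 12.2% of all genes in that direction. DESeq2 gave an adjusted p of 0.0547 for Srebf2. Without wild type replicate 2 its log2 fold change was -0.71 (edgeR adjusted p = 0.00248), and with no filter on low counts -0.51 (adjusted p = 0.00992). Without both libraries numbered 2 it was -0.73 (adjusted p = 0.0114). In these fits 1676 of 15683, 843 of 26419 and 1090 of 15567 tested genes were called lower, in that order. Leaving out 1 library gave -0.71 to -0.405, and over 17 alternatives the adjusted p ran from 0.00248 to 1.

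Transcripts of intronic and unreviewed loci also differed between the libraries. The mean centred log2 level of 292 genes that GENCODE classes as TEC (loci awaiting experimental proof) or sense intronic was -0.44, -0.429 and -0.124 in duplication replicates 1 to 3, and 0.467, -0.000406 and 0.527 in wild type replicates 1 to 3. Wild type replicates 1 and 3 are the high libraries for this class, as for Srebf2, while wild type replicate 2 is above all duplication libraries in this class and not in Srebf2. With this level as a covariate the log2 fold change of Srebf2 was 0.27 ± 0.16 (edgeR adjusted p = 1), positive in place of negative. Every wild type library is above every duplication library in this level. With 3 libraries per group, this fit can hardly separate the level from genotype. The same covariate turned the sign of 22 of 47 named genes, Dhcr7, Scap, Lrp1 and Apoe among them. Srebf2 also overlaps 2110 bases of a TEC locus, Gm49502, on its own strand, which has no named line among the counts used. It holds Mir33 in an intron, which was at 0 counts. That covariate does not settle the part of this class in the difference, which was not tested otherwise.

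The fitted ratio of duplication to wild type was 0.698 for Srebf2, while the summed CPM of the 22 enzymes, most of them known SREBP2 targets, had a ratio of 1.02. Insig1, a direct SREBP2 target whose protein closes the feedback loop, lies at chr5:28071363-28078662 on the plus strand. It stood at 91.1, 75.3 and 79.8 CPM in duplication and at 86.6, 74.7 and 74.7 CPM in wild type. Replicate 1 is the high library in each group, and the log2 fold change was 0.06 ± 0.09 (edgeR adjusted p = 0.724). The difference between Srebf2 and its targets was not itself tested.

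**Figure D4:**
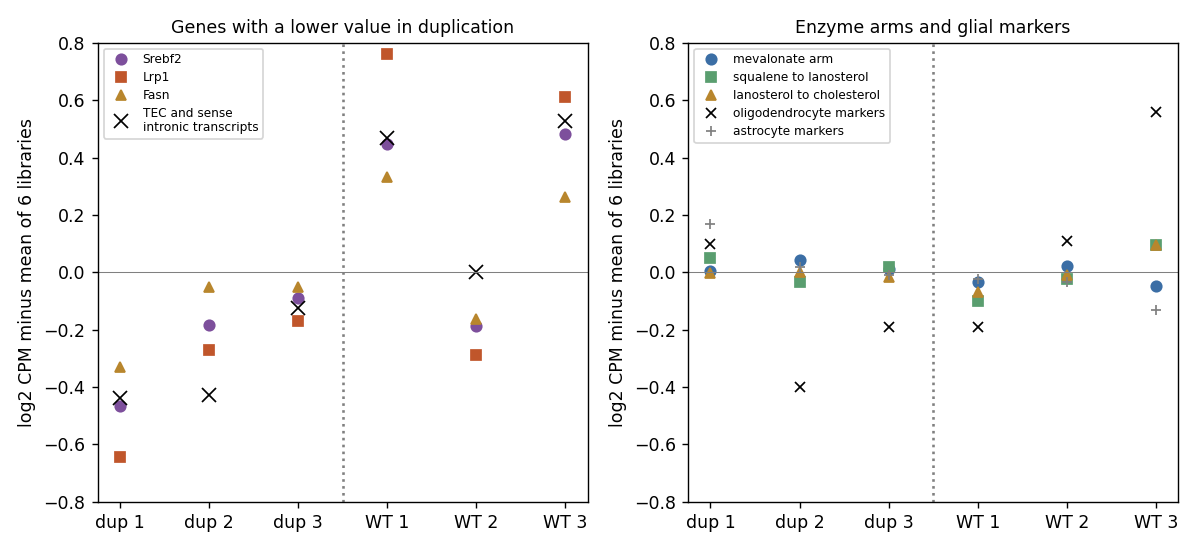
Log2 CPM minus the mean of the 6 libraries, duplication (dup) left of wild type (WT). The left panel shows Srebf2, Lrp1, Fasn and the mean of 292 TEC and sense intronic genes, which are high in wild type replicates 1 and 3, and the right panel shows the means of the 3 enzyme steps, which stay between -0.10 and 0.096, beside oligodendrocyte and astrocyte markers.

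Of the 13 regulators, none was called, and their median log2 fold change was 0.008. An unadjusted p under 0.05 came with higher values in duplication at 1 (Rnf145), beside 7.05% of all genes. It came with lower values at 1 (Srebf2), beside 12.2% of all genes. At 3 of them, Rnf145 and Ube2g2 included, every duplication library was above every wild type library, beside 11.7% of all genes. Rnf145, a ubiquitin ligase of the endoplasmic reticulum, stood at 123, 123 and 132 CPM in duplication and at 111, 114 and 109 CPM in wild type. The groups are apart and the log2 fold change was 0.18 ± 0.06 (edgeR unadjusted p = 0.0143, adjusted p = 0.181). Ube2g2, a ubiquitin-conjugating enzyme, had a log2 fold change of 0.11 ± 0.07, and its duplication replicate 2, at 28.0 CPM, is barely above wild type replicate 1, at 27.9 CPM. Most of Ube2g2 lies in the span of Gm49325 on the same strand, a gene with no named line among the counts used. Scap, the escort of SREBP2, gave 59.3, 68.4 and 65.2 CPM in duplication and 80.1, 64.6 and 74.6 CPM in wild type. Here too wild type replicates 1 and 3 were the high libraries, with a log2 fold change of -0.19 ± 0.09 (edgeR adjusted p = 0.297). Without wild type replicate 2 it was -0.27 (adjusted p = 0.0394, from 0.0394 to 1 over 17 alternatives), in a fit that called 1676 of 15683 genes lower. Without wild type replicate 1 the log2 fold change of Scap was -0.12. Srebf1, which encodes SREBP1, had a log2 fold change of 0.04 ± 0.14. A further 7, Insig1, Insig2, the site proteases Mbtps1 and Mbtps2, Erlin1 and Erlin2 (which help keep SREBP in the endoplasmic reticulum) and the ubiquitin ligase Rnf139, had log2 fold changes between -0.04 and 0.06. Rnf139 shares 16903 bases with Tatdn1 on the other strand, a gene with 677 counts, and lies largely in the span of Gm49356 on the same strand. Gm49356 also has no named line among the counts used, so whether it took reads from Rnf139 is not known.

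Among 7 further SREBP2 targets none was called. None had an unadjusted p under 0.05 in either direction, beside 7.05% of all genes higher and 12.2% lower. Npc1l1, a sterol uptake protein best known in the gut, had the smallest p, at 1.32, 1.15 and 0.944 CPM in duplication and 0.872, 0.764 and 0.731 CPM in wild type. The groups are apart at Npc1l1, with higher values in duplication, as at 11.7% of all genes. Its counts are low and its log2 fold change of 0.54 ± 0.27 has an interval from -0.06 to 1.15. Tmem97, which binds NPC1, had a log2 fold change of 0.20 ± 0.11. Stard4, a cytosolic sterol carrier, had one of -0.16 ± 0.10 (edgeR adjusted p = 0.369). Without wild type replicate 2 it was -0.26 (adjusted p = 0.0497, from 0.0497 to 1 over 17 alternatives), in a fit that called 1676 of 15683 genes lower. Without wild type replicate 3 the log2 fold change of Stard4 was -0.07.

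Sterol uptake and lysosomal export held the largest difference among the pathway lists, at Lrp1, the receptor by which neurons take up apolipoprotein E particles. Lrp1 stood at 218, 282 and 303 CPM in duplication and at 577, 279 and 520 CPM in wild type. As at Srebf2, wild type replicate 2 lies among the duplication libraries and the other 2 wild type libraries stand far above. The log2 fold change of Lrp1 was -0.78 ± 0.24 (edgeR unadjusted p = 0.00933, adjusted p = 0.175). Without wild type replicate 2 it was -1.04 (adjusted p = 0.00191, from 0.00191 to 1 over 17 alternatives). Without both libraries numbered 2 it was -1.07 (adjusted p = 0.0101), and with no filter on low counts -0.77 (adjusted p = 0.00238). In these fits 1676 of 15683, 1090 of 15567 and 843 of 26419 tested genes were called lower, in that order. Leaving out 1 library gave -1.04 to -0.577 for Lrp1. After adjustment for the TEC and sense intronic level, Lrp1 gave 0.37. Of the 8 genes, Mylip and Npc2 had an unadjusted p under 0.05 with higher values in duplication, beside 7.05% of all genes, and none was called. Mylip, a ubiquitin ligase that acts on lipoprotein receptors, stood at 23.6, 22.1 and 22.7 CPM in duplication and at 20.9, 18.8 and 18.0 CPM in wild type. Its groups are apart, with a log2 fold change of 0.25 ± 0.08 (edgeR adjusted p = 0.186). Npc2, which hands sterol to NPC1 in the lysosome, stood at 36.9, 32.1 and 33.7 CPM in duplication and at 29.1, 29.5 and 29.8 CPM in wild type. Its groups are also apart, with a log2 fold change of 0.22 ± 0.08 (edgeR adjusted p = 0.189). Groups stood apart in this direction, as at Mylip and Npc2, at 11.7% of all genes. Npc1 itself was lower in every duplication library, at 52.5, 48.8 and 51.9 CPM, than in any wild type library, at 60.1, 52.9 and 57.2 CPM, with a log2 fold change of -0.15 ± 0.07 (edgeR adjusted p = 0.28). Groups stood apart in that direction at 10.5% of all genes. Npc1 falls outside the rule for named genes and was chosen after its values were seen.

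Of 11 genes of sterol efflux, LXR signalling and turnover, Ch25h and Soat2 had too few counts to be tested. Among the 9 tested none was called. The 1 with an unadjusted p under 0.05, beside 7.05% of all genes with higher values, was Apoe, the main lipid carrier of the brain. Apoe stood at 831, 772 and 722 CPM in duplication and at 705, 710 and 638 CPM in wild type. Each duplication library is above each wild type library, as at 11.7% of all genes, and the log2 fold change was 0.18 ± 0.07 (edgeR unadjusted p = 0.0315, adjusted p = 0.223). Abcg4, a sterol exporter of neurons and glia, had a log2 fold change of -0.32 ± 0.19 (edgeR adjusted p = 0.38). Its wild type replicates 1 and 3 were at 35.0 and 27.5 CPM and the other 4 libraries from 18.5 to 25.3 CPM. Without wild type replicate 2 its log2 fold change was -0.52 (adjusted p = 0.0382, from 0.0382 to 1 over 17 alternatives), in a fit that called 1676 of 15683 genes lower. Without wild type replicate 1 the log2 fold change of Abcg4 was -0.11. Soat1, which stores sterol as esters, had a log2 fold change of -0.10 ± 0.08.

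Markers of other cell types were summed beside these genes. The 10 astrocyte markers all had a positive log2 fold change, with a median of 0.13. An unadjusted p under 0.05 was found at 1 of 10, beside 7.05% of all genes with higher values. Their summed level ran from 3990 to 4281 CPM in duplication and from 3900 to 4057 CPM in wild type. Apoe, higher in each duplication library, is made mostly by astrocytes. The 10 oligodendrocyte markers all had a negative log2 fold change, with a median of -0.36. An unadjusted p under 0.05 was found at 0 of 10, beside 12.2% of all genes with lower values. Their summed level was 1801, 1333 and 1553 CPM in duplication and 1484, 1837 and 2564 CPM in wild type, highest in wild type replicate 3. In mean centred log2 CPM the squalene to lanosterol step (0.094) and the lanosterol to cholesterol arm (0.096) were also highest in wild type replicate 3. The mevalonate arm was lowest there by this mean, at -0.048, but not by its summed level. That sum was 799, 834 and 842 CPM in duplication and 771, 799 and 821 CPM in wild type replicates 1 to 3. Among the members Sqle, Dhcr7 and Srebf2 were highest in that library, and Hmgcs1, Insig1, Idi1, Fdft1 and Cyp51 were not. All 10 meningeal fibroblast markers had a positive log2 fold change, 7 of them with an unadjusted p under 0.05, beside 7.05% of all genes. None of the 10 was called by edgeR and 3 were called by DESeq2, beside 1.85% of all genes, and their summed level was 185 to 373 CPM in duplication and 91.1 to 135 CPM in wild type. The summed level of 10 neuronal markers ran from 9978 to 10872 CPM across the 6 libraries. These markers included genes of both excitatory and inhibitory neurons, as the labelled tissue holds, and had a median log2 fold change of -0.09. An unadjusted p under 0.05 was found at 2 of them with higher values and at 1 with lower values, beside 7.05% and 12.2% of all genes. The medians were 0.08 for 8 microglial and 0.10 for 8 endothelial markers. The part of these cell types in the sterol genes was not tested.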

How the data were processed

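Prefrontal cortex RNA of 3 duplication and 3 wild type libraries was extracted with Trizol and made into stranded, Ribo-Zero depleted libraries, per the labels' protocols. The submitters' processing notes name cutadapt, TopHat2, HTSeq and mm10, with no versions, and no strand setting or annotation. The deposited values are the authors' raw gene counts, with no normalization, and 274806 of 274806 values agreed between the tables per library and the joint table.

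The joint table has 45807 lines of counts and 45801 names, and names were shifted by 0 to 6 lines in 6 steps, so that 65.1% of names stand against another gene's counts. In 89 of 90 windows of 500 lines the best offset equalled the one used. Names within 25 lines of a step were left out, except Msmo1, and unnamed lines held 0.901% to 0.946% of counts and entered neither library sizes nor tests. Positions, classes and exon lengths came from GENCODE M21, of the same build, where 91.8% of names were found.

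The group test was that of edgeR 4.0.16 under R 4.3.3 (TMM, filterByExpr, quasi-likelihood F-test, Benjamini-Hochberg over 15399 genes, threshold 0.05). Common dispersion had a square root of 0.0951, and log2 CPM used a prior count of 2. The script was tested on simulated data. DESeq2 1.42.0, limma-voom (limma 3.58.1), other scalings and filters, a replicate block, covariates and left-out libraries were alternatives, and the enzymes without Msmo1 were added after seeing the data. Reads carry no molecular identifiers, so PCR copies are counted as molecules.

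The members and lists were chosen with earlier results of these data known. Named were the members, the measured enzymes and regulators, the 3 genes with the smallest p of each other pathway list, and 5 genes most like the members. Some genes that this rule names are not reported here and are left out of the figures, but stay in the counts, sums and medians of their lists.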

Additional observations from a re-analysis of the deposited data

How the results depend on the processing

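The median log2 fold change of the 22 enzymes stayed within its spread under all alternatives run, from -0.018 without wild type replicate 1 to 0.056 with upper-quartile factors, and 0 of the enzymes named here passed the adjusted threshold under any of them. The median of the 8 members was 0.091 with the TEC and sense intronic level as a covariate, and the cause was not tested. There 0 members had an unadjusted p under 0.05, beside 1.49% of all genes higher and 1.38% lower. That level divides the same libraries as genotype, so its fit can hardly separate them, also for the signs below. Genes called higher and lower over all genes were 46 and 239 with DESeq2, 173 and 843 without a filter on low counts, 6 and 1 with the replicate block, and 230 and 1090 without both libraries numbered 2. Leaving out 1 library gave 0 to 733 called higher and 0 to 1676 called lower, the highest without wild type replicate 2. No label says that the replicate numbers pair the libraries. Same-numbered libraries had correlations of deviations of 0.102, 0.0629 and 0.311 for numbers 1, 2 and 3, duplication replicate 1 correlated more with wild type replicate 2 (0.157), and Xist and Y-linked counts followed the number in both groups. The pairing was not taken as given, and the replicate block changed no call of a named gene. Enzymes with an unadjusted p under 0.05 numbered 1 lower without a filter (9.4% of all genes) and 2 lower without both libraries numbered 2 (15.9%). With sex as a covariate 1 was higher (6.51%). Sex was set from Xist against Y-linked counts, so this covariate only sets replicate 1 of each group against the rest. Enzymes whose groups did not overlap numbered 2 higher with upper-quartile factors (14.2% of all genes), 1 higher with library size only (11.8%), and 2 higher (29.7%) and 3 lower (28.3%) without both libraries numbered 2. Of the 8 members, 1 stood apart higher with upper-quartile factors and 1 with library size only, beside the same shares. Without both libraries numbered 2, 2 members had an unadjusted p under 0.05 with lower values, 1 stood apart higher and 2 lower, again beside the shares above. Leaving out 1 library gave 0 to 1 enzymes with an unadjusted p under 0.05 higher and 0 to 2 lower, 0 to 3 enzymes standing apart higher and 0 to 3 lower, 0 to 1 members with an unadjusted p under 0.05 higher and 0 to 2 lower, and 0 to 2 members standing apart higher and 0 to 2 lower. The shares of all genes were then 3.22% to 13.8% and 6.79% to 18.0% for unadjusted p under 0.05 higher and lower, and 14.8% to 24.5% and 13.9% to 24.8% for standing apart higher and lower. Without a filter Srebf2 and Lrp1 passed (adjusted p = 0.00992 and 0.00238). Signs that turned belonged to genes that no alternative with that sign called. With DESeq2 the log2 fold change was -0.00138 for Sqle and -0.00182 for Mbtps2. With upper-quartile factors the log2 fold change was 0.00844 for Cyp51, 0.0183 for Pmvk, 0.0177 for Fdps, 0.0181 for Sc5d and 0.0157 for Insig2. With library size only the log2 fold change was 0.00788 for Pmvk, 0.00689 for Fdps, 0.00776 for Sc5d and 0.00593 for Insig2. With RLE factors the log2 fold change was -0.00129 for Sqle and -0.00181 for Mbtps2. Without a filter on low counts the log2 fold change was 0.00324 for Pmvk, 0.00321 for Fdps, 0.00258 for Sc5d and 0.000331 for Insig2. With at least 10 counts in each library the log2 fold change was -3.49e-05 for Sqle and -0.000467 for Mbtps2. With the replicate block the log2 fold change was 0.00204 for Fdps. Without both libraries numbered 2 the log2 fold change was 0.026 for Cyp51, 0.00454 for Pmvk, 0.0619 for Fdps, 0.0786 for Tm7sf2, -0.0175 for Lbr and -0.10 for Mbtps2. With the TEC and sense intronic level as a covariate the log2 fold change was -0.082 for Idi1, 0.10 for Dhcr7, 0.27 for Srebf2, 0.081 for Cyp51, -0.12 for Mvk, 0.0575 for Lss, -0.20 for Erg28, 0.00477 for Sc5d, -0.34 for Srebf1, 0.0786 for Scap, 0.0562 for Insig2, -0.0617 for Mbtps1, 0.0142 for Erlin1, -0.16 for Erlin2, -0.000552 for Rnf139, 0.17 for Stard4, 0.37 for Lrp1, -0.000947 for Apoe, 0.50 for Abcg4, 0.23 for Fasn, 0.0379 for Me1 and -0.0482 for Coq2. Leaving out 1 library turned the sign of 20 named genes near 0, whose log2 fold changes then ran from -0.0172 to 0.14 for Insig1, -0.0275 to 0.0499 for Mvk, -0.0687 to 0.0822 for Fdps, -0.0946 to 0.14 for Srebf1, -0.0244 to 0.0291 for Mbtps1, -0.0501 to 0.0388 for Cyp51, -0.17 to 0.00909 for Tm7sf2, -0.0673 to 0.0932 for Mbtps2, -0.0345 to 0.0541 for Erlin2, -0.0628 to 0.0735 for Sqle, -0.0351 to 0.0351 for Pmvk, -0.0264 to 0.0278 for Sc5d, -0.0268 to 0.13 for Lbr, -0.0467 to 0.0904 for Msmo1, -0.0036 to 0.10 for Nsdhl, -0.0342 to 0.15 for Erg28, -0.0372 to 0.0183 for Insig2, -0.0813 to 0.0191 for Erlin1, -0.000253 to 0.0851 for Rnf139 and -0.000529 to 0.10 for Acat2. Depth limits Npc1l1, at 0.731 to 1.32 CPM, and Ch25h and Soat2, which were not tested.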

Other observations

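Fatty acid synthesis, run by SREBP1 and in part by SREBP2, was measured at 12 genes. None was called by edgeR, and 2, Fasn and Me1, had an unadjusted p under 0.05 with lower values in duplication, beside 12.2% of all genes. Fasn, the fatty acid synthase, stood at 202, 245 and 245 CPM in duplication and at 320, 227 and 305 CPM in wild type, with a log2 fold change of -0.30 ± 0.13 (edgeR adjusted p = 0.249). Its high libraries are wild type replicates 1 and 3, as at Srebf2. Without wild type replicate 2 its log2 fold change was -0.44 (edgeR adjusted p = 0.00938, from 0.00938 to 1 over 17 alternatives), in a fit that called 1676 of 15683 genes lower. Leaving out 1 library gave -0.44 to -0.206 for Fasn. Me1, the malic enzyme that supplies reducing power, stood at 36.6, 40.0 and 38.3 CPM in duplication and at 43.9, 39.4 and 48.4 CPM in wild type. Its log2 fold change was -0.20 ± 0.09 (edgeR adjusted p = 0.255). Without wild type replicate 2 it was -0.27 (adjusted p = 0.0375, from 0.0375 to 1 over 17 alternatives), beside the same 1676 of 15683 genes called lower. Without wild type replicate 3 the log2 fold change of Me1 was -0.12. Scd2, the main stearoyl-CoA desaturase of brain, stood at 1010, 986 and 973 CPM in duplication and at 1061, 1023 and 1072 CPM in wild type. Each duplication library is below each wild type library, as at 10.5% of all genes. The log2 fold change of Scd2 was -0.09 ± 0.05 (edgeR adjusted p = 0.373).

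The isoprenoid branches that leave the mevalonate arm were measured at 10 genes, with a median of -0.01 on the log2 scale. None had an unadjusted p under 0.05, beside 7.05% of all genes higher and 12.2% lower. Pdss1, which makes the side chain of coenzyme Q, stood at 6.80, 6.41 and 6.55 CPM in duplication and at 9.99, 6.88 and 7.31 CPM in wild type. The groups are barely apart at Pdss1, with lower values in duplication, as at 10.5% of all genes, and wild type replicate 1 is the high library. Its log2 fold change was -0.28 ± 0.15 (edgeR adjusted p = 0.337), and without wild type replicate 1 it was -0.10. Coq2, which joins that chain to the ring, had one of 0.13 ± 0.08, and Pggt1b, a subunit of a protein prenyltransferase, one of -0.15 ± 0.09.

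The mean of the 8 standardised members was 0.118, -0.4 and 0.366 in duplication and -0.441, -0.184 and 0.541 in wild type. The 5 other tested genes whose log2 CPM followed it most closely over the 6 libraries were Cep126 and Adcy9 (Pearson r 0.959 each), Pcyt2 and the pseudogene Mrpl48-ps (0.957 each) and Cwh43 (0.956), picked from all genes for this likeness and given as a description.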
